A study of Mus musculus with 4 samples.

Results

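The genes described here encode signals that group 2 innate lymphoid cells (ILC2) send to their neighbours: the myeloid growth factor GM-CSF (Csf2), the cytokines Tnf and Lif, the growth factors amphiregulin (Areg) and Vegfa, and the chemokines Ccl1, Ccl3, Ccl4, Ccl5 and Xcl1. They were chosen by symbol as a list of 10 genes. Of these, 8 had a row in the table of 15835 genes, and expression of Ccl3 and Xcl1, which had none, was not analysed here. RNA came from ILC2 of the islets of Langerhans of C57BL/6j mice that had been either fasted or fed, with 4 fasted and 4 fed libraries and no other allele or treatment named. The sources used here do not state the length of the fast, the sort that gave the cells or the number of mice behind a library. The p-values therefore measure how these libraries vary, part of which may be technical. The comparison asks how fasting alters genes tied to ILC2 function.

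ILC2 are tissue-resident lymphocytes without antigen receptors that answer alarm signals from epithelium and stroma by secreting type 2 cytokines. Beside these cytokines they release GM-CSF, which sustains macrophages, dendritic cells and eosinophils, and amphiregulin, a ligand of the epidermal growth factor receptor linked to tissue repair. Messengers of this kind are made in bursts: factors such as NFAT, AP-1 and NF-kB start transcription, and AU-rich elements in the 3′ untranslated region mark many of the transcripts for rapid decay.

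The AU-rich elements are shown because they divide the list. In GENCODE vM21 the longest annotated 3′ untranslated region of Csf2 held 9 ATTTA pentamers and 4 copies of the overlapping nonamer TTATTTATT, the core that decay proteins of the Zfp36 family bind. Tnf held 8 and 5, Lif 7 and 2, Vegfa 9 and 1, and Areg 4 and 1. Ccl1 and Ccl5 held 0 of either, and Ccl4 held 2 pentamers and 0 nonamers. The sense strand around the first nonamer of each of the 5 genes is printed 5′ to 3′, with every ATTTA in capitals.
Csf2: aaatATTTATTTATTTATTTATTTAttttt
Tnf: cacttattATTTAttATTTATTTAttattt
Lif: gggcctttATTTAttATTTAaaacttcaaa
Vegfa: tatcATTTATTTAttggtgctactgtttat
Areg: taagtgttATTTAttttatagctcattaaa
The Csf2 stretch is an unbroken run of the pentamer, each copy sharing its last base with the next. The Tnf stretch repeats the pentamer less often, with a break of tt in the run. The Areg stretch holds a single pentamer. A match of letters is a description and does not show that a protein binds there.

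Library totals ran from 2041697 to 9366807 counts in fasted libraries and from 1797504 to 25252366 counts in fed libraries, and 9537 to 14056 genes had a count. Of 19 ILC2 identity genes with a row, 17 had counts in every library, among them Gata3, Il1rl1, Thy1 and Klrg1. Rora, a factor that defines the lineage, was at or near 0, with 1 count in fasted libraries and 5 in fed libraries. The libraries carried RNA of acinar cells, the enzyme-secreting cells around the islets: 21 acinar markers took 2.32%, 2.605%, 49.8% and 52.9% of counts in fasted libraries 1, 3, 4 and 5, against 29.8%, 35.9%, 52.9% and 48.2% in fed libraries 1, 3, 4 and 5. Fasted libraries 1 and 3 stood apart in this, so the log2 fold changes below were also computed without them. Levels are counts scaled to library size (CPM), with library sizes adjusted by TMM, which assumes that most genes do not differ between libraries. They can be compared between libraries and not between genes. In bulk RNA, fewer cells of a type and less RNA per cell cannot be told apart.

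Across the list, no gene passed the threshold. Fasted and fed libraries were compared with the edgeR quasi-likelihood test over the 7700 genes that passed a filter on low counts, 7 of them from this list, and 0 of the 7 had a Benjamini-Hochberg adjusted p under 0.05, against 0.0% of all genes tested. The log2 fold change, fasted minus fed, was negative for 5 of the 7 (Csf2, Tnf, Lif, Areg and Vegfa) and positive for Ccl1 and Ccl5, against 50.2% of all genes with a negative value. Its median was -0.58 over the 7, against -0.002 over all genes tested. An unadjusted p under 0.05 with a lower fasted level was reached by Csf2 alone of the 7, against 1.62% of all genes. With the library number as a replicate block Lif reached it as well, at -0.59 ± 0.23 (SE; edgeR, unadjusted p = 0.0346, with an adjusted p of 0.71). Over 21 alternative settings it was reached by Csf2 in 20, Tnf in 3, Lif in 2 and Vegfa in 1. Areg, Ccl1 and Ccl5 reached it in 0.

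**Figure D1:**
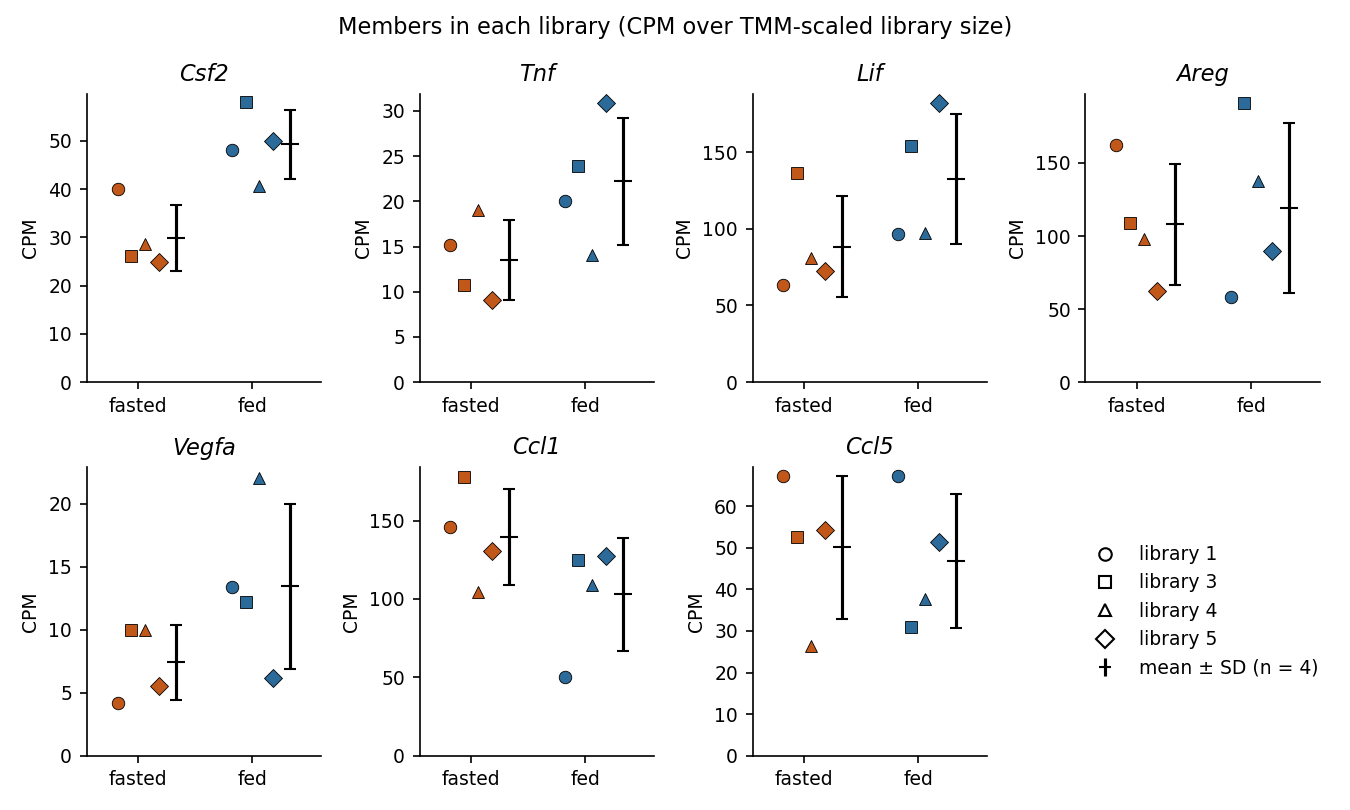
Level of each tested gene in CPM over TMM-scaled library size (linear axes from 0) in the 4 fasted libraries (orange) and the 4 fed libraries (blue). Marker shapes give the library number, and bars give mean ± SD (n = 4). The Csf2 libraries do not overlap, with a highest fasted level of 40.0 CPM and a lowest fed level of 40.7 CPM, and the other 6 genes overlap.

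Csf2 encodes GM-CSF and lies on chromosome 11 (GRCm38 chr11:54247271-54249667, minus strand). It had 40.0, 26.2, 28.6 and 24.8 CPM in fasted libraries 1, 3, 4 and 5, against 48.2, 58.1, 40.7 and 50.01 CPM in fed libraries 1, 3, 4 and 5. Every fasted library was below every fed library, by a margin of less than 1 CPM at the closest point, and each fasted library was below the fed library of its number. The groups of 1 of the 7 genes were thus separate with the lower level in fasted libraries, against 1.31% of all genes tested. The means were 29.9 ± 6.92 CPM in fasted libraries and 49.2 ± 7.12 CPM in fed libraries (SD, n = 4 each), a log2 fold change of -0.72 ± 0.25 (SE; edgeR, unadjusted p = 0.0136, Benjamini-Hochberg adjusted p = 0.98), the 107th smallest p of the 7700.

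The raw Csf2 counts were 171, 134, 155 and 131 in fasted libraries and 108, 429, 551 and 146 in fed libraries. With each count taken as a separate molecule, this gives a counting error of 4.26% to 9.62% per library. At the closest point, fasted library 1 and fed library 4 differed by less than their counting errors of 7.65% and 4.26%. Set against the counts of 18 ILC2 identity genes in the same library, a scale that leaves acinar RNA out, Csf2 had 14.1, 8.19, 10.5 and 9.12 counts per 1000 in fasted libraries 1, 3, 4 and 5, against 14.5, 17.7, 18.5 and 17.2 in fed libraries 1, 3, 4 and 5. The groups were separate on this scale too, with fasted library 1 next to fed library 1. The log2 fold change was -0.70 ± 0.25 with library sizes set by those genes, -0.87 ± 0.30 with the acinar share as a covariate and -0.88 ± 0.33 without fasted libraries 1 and 3. The Csf2 groups overlapped with upper quartile factors, at -0.71 ± 0.25, and with library totals alone, at -0.16 ± 0.72, where the median of all genes stood at 0.51. An antisense gene, Gm12223, is annotated across Csf2 on the opposite strand. It had no row in the table, and the sources used here do not state whether counting used the strand, so reads from the pair could not be told apart if strand was ignored.

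Tnf encodes tumour necrosis factor, an inflammatory cytokine made as a membrane protein and released by cleavage (GRCm38 chr17:35199381-35202007, minus strand). It had 15.2, 10.7, 19.0 and 9.10 CPM in fasted libraries 1, 3, 4 and 5, against 20.1, 23.95, 14.0 and 30.8 CPM in fed libraries 1, 3, 4 and 5. The groups overlapped because fed library 4 was below fasted libraries 1 and 4, and number 4 was the only pair in which the fasted library was higher. Tnf had a log2 fold change of -0.71 ± 0.35 (SE; edgeR, unadjusted p = 0.064, Benjamini-Hochberg adjusted p = 1.00). Tnf counts were low, at 48 to 103 in fasted libraries and 45 to 190 in fed libraries, with counting errors of 7.25% to 14.9%.

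Lif encodes leukaemia inhibitory factor, which signals through the receptor pair of Lifr and Il6st (GRCm38 chr11:4257557-4272514, plus strand). It had 63.2, 137, 80.9 and 72.6 CPM in fasted libraries 1, 3, 4 and 5, against 96.8, 154, 97.4 and 182 CPM in fed libraries 1, 3, 4 and 5. Fasted library 3 was the only fasted library above any fed library, and all 4 fasted libraries were below the fed library of their number. Lif had a log2 fold change of -0.58 ± 0.31 (SE; edgeR, unadjusted p = 0.0843, Benjamini-Hochberg adjusted p = 1.00). Without fasted library 3 the Lif groups did not overlap, at -0.88 ± 0.30, and without fasted libraries 1 and 3 they did not overlap either, at -0.79 ± 0.37.

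Vegfa encodes the main growth factor of blood vessels, which in islets is known above all as a beta cell product that keeps the capillary network (GRCm38 chr17:46016993-46032369, minus strand). It had 4.21, 9.95, 9.96 and 5.50 CPM in fasted libraries 1, 3, 4 and 5, against 13.4, 12.2, 22.0 and 6.17 CPM in fed libraries 1, 3, 4 and 5. Fed library 5 lay inside the fasted range, and each fasted library was below the fed library of its number. The log2 fold change was the largest in size of the 7 and also the least precise, at -0.87 ± 0.45 (SE; edgeR, unadjusted p = 0.0822, Benjamini-Hochberg adjusted p = 1.00). Fasted library 1 and fed library 5 held 18 Vegfa counts each, a counting error of 23.6%. Markers of islet endocrine cells, which also make Vegfa, summed to between 8.33 and 63.2 CPM of library totals in fasted libraries and between 44.1 and 107 CPM in fed libraries, over 12 of 18 markers with a row. In fed libraries and in fasted libraries 4 and 5 most of that sum was Ttr, with 2158 counts in fed library 4. Fasted libraries 1 and 3 had 0 counts of Ttr. In fasted library 3, which had the highest fasted sum, the insulin genes Ins2 and Ins1 had 73 and 51 counts and Pcsk1 had 37. Ins2 had 16 counts or fewer in the other libraries, and Gcg and Iapp were at 0 in most libraries. The part of endocrine cells in the Vegfa values was not tested.

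Areg encodes amphiregulin, held at the membrane until it is shed (GRCm38 chr5:91139599-91148432, plus strand). It had 163, 109, 97.7 and 62.6 CPM in fasted libraries 1, 3, 4 and 5, against 58.0, 191, 138 and 89.7 CPM in fed libraries 1, 3, 4 and 5. The groups overlapped over most of their ranges, which spanned 2.60-fold in fasted libraries and 3.29-fold in fed libraries, and the fasted library was above its fed counterpart for number 1 alone. Areg had a log2 fold change of -0.15 ± 0.38 (SE; edgeR, unadjusted p = 0.71, Benjamini-Hochberg adjusted p = 1.00). Its sign rested on single libraries, at -0.41 without fasted library 1, 0.04 without fasted library 5 and 0.17 without fed library 3.

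Without fasted libraries 1 and 3 Areg was at -0.57 ± 0.46, and with the acinar covariate at -0.51 ± 0.41, neither past the threshold. Per 1000 ILC2 identity counts Areg stood at 37.5 ± 14.3 in fasted libraries and 42.3 ± 21.7 in fed libraries (SD, n = 4 each), so its spread stayed wide on a scale without acinar RNA. Fasted library 1, the highest fasted library for Areg, also had the highest sum of myeloid markers, at 933 CPM of its total against 29.98 to 78.5 CPM in the other fasted libraries and 42.7 to 118 CPM in fed libraries, over 15 of 18 markers with a row. In that library Cd74, H2-Ab1 and H2-Aa, of antigen presentation, had 637, 518 and 352 counts, the complement gene C1qb had 161, Lyz1 had 133 and the macrophage receptor Csf1r had 50, against 0 counts of Csf1r in the other 7 libraries. Lyz2, another macrophage and granulocyte gene, had 0 in fasted library 1. The part of this RNA in the Areg level was not tested.

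The chemokines had the positive values. Ccl1 draws cells that carry the receptor Ccr8, which includes ILC2 themselves (coding transcripts at GRCm38 chr11:82176657-82179812, minus strand). It had 146, 178, 105 and 131 CPM in fasted libraries 1, 3, 4 and 5, against 50.4, 125, 109 and 127 CPM in fed libraries 1, 3, 4 and 5. Fed library 1 was far below the other 7 libraries, which overlapped, and fasted library 4 was the only fasted library below its fed counterpart. The log2 fold change was 0.44 ± 0.30 (SE; edgeR, unadjusted p = 0.173, Benjamini-Hochberg adjusted p = 1.00). It was 0.22 without fed library 1 and 0.19 ± 0.38 without fasted libraries 1 and 3.

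Ccl5 encodes RANTES, a chemokine for T cells, monocytes and eosinophils that is also a product of activated T cells and NK cells (GRCm38 chr11:83525778-83530518, minus strand). It had 67.4, 52.7, 26.4 and 54.2 CPM in fasted libraries 1, 3, 4 and 5, against 67.4, 31.0, 37.6 and 51.4 CPM in fed libraries 1, 3, 4 and 5. Both groups covered nearly the same range, with a log2 fold change of 0.11 ± 0.33 (SE; edgeR, unadjusted p = 0.76, Benjamini-Hochberg adjusted p = 1.00). The sign turned to -0.07 without fasted library 1, to -0.06 without fed library 3, to -0.17 with the acinar covariate and to -0.21 without fasted libraries 1 and 3.

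Markers of the other cells that make Ccl5 were read beside it. T cell markers summed to between 255 and 1088 CPM of library totals in fasted libraries and between 139 and 677 CPM in fed libraries, over 10 of 14 markers with a row. Lat and Cd3g made up most of that sum. Cd8a had 0 counts in all fasted libraries and 11 in fed libraries, 10 of them in fed library 4. Cd3d had 0 to 5 counts in a library, and Cd5 had 3 in fed library 4 and 0 elsewhere. Cd3e ran from 0 to 43 counts and Lef1 from 30 to 132. The highest T cell sums, 1088 and 1058 CPM, were in fasted libraries 1 and 3, which had little acinar RNA. Library totals include acinar RNA, and on this scale ILC2 identity genes were also highest there, at 6293 and 6644 CPM. NK, ILC1 and ILC3 markers summed to between 5.98 and 14.7 CPM in fasted libraries and between 1.19 and 18.3 CPM in fed libraries, over 5 of 15 markers with a row, with Ncr1, Tbx21 and Ifng at 0 in most libraries and at 4 counts or fewer in the rest. The part of such cells in the Ccl5 level was not tested.

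Ccl4, which encodes the chemokine MIP-1 beta (GRCm38 chr11:83662584-83664683, plus strand), failed the filter and was not tested. It had 7 counts in fasted library 5 and 0 in the other 7 libraries. The 7 counts equal 0.747 CPM of that library's total (95% Clopper-Pearson interval 0.300 to 1.54 CPM, which covers counting error only). A count of 0 allows up to 3 counts, or 0.119 CPM in fed library 4, the deepest, to 1.67 CPM in fed library 1. A count of 0 in fasted libraries 1 and 3 and fed library 1 thus does not exclude a level like that of fasted library 5. The limits of fasted library 4 and fed libraries 3, 4 and 5 were below 0.747 CPM. Only that of fed library 4 was also below the interval of fasted library 5. The interval and the limits take each count as a separate molecule.

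**Figure D2:**
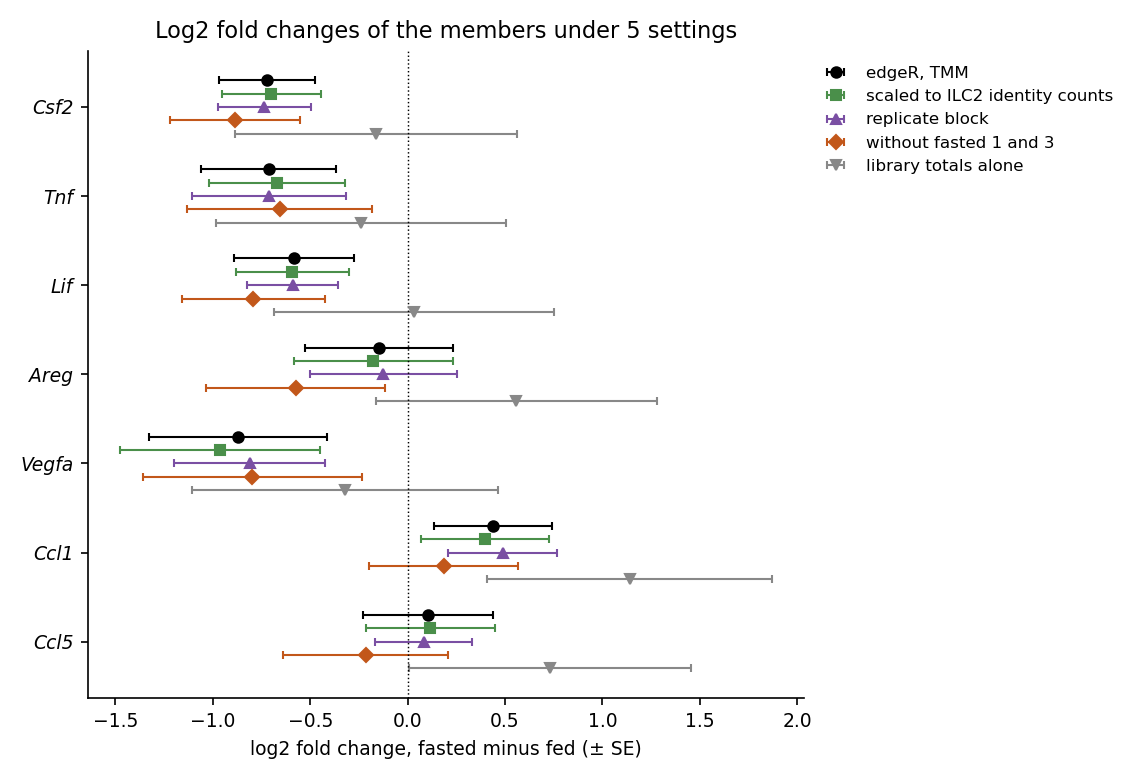
Log2 fold change, fasted minus fed (± SE), of the 7 tested genes under the edgeR fit with TMM scaling, library sizes set by ILC2 identity counts, the library number as a replicate block, leaving out fasted libraries 1 and 3, and library totals alone. Csf2, Tnf and Vegfa were negative in all of these, Ccl1 was positive in all, and Lif, Areg and Ccl5 changed sign in at least 1.

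Because Csf2 and Ccl1 differed in sign, ratios of counts within a library were read for all 21 pairs of the 7 genes. Such a ratio does not depend on how library sizes are scaled. The fasted and fed libraries were separate for 2 of the 21 pairs, both with Ccl1, and these pairs were chosen after their values were seen. Ccl1 over Csf2 was 3.65, 6.799, 3.66 and 5.26 in fasted libraries 1, 3, 4 and 5, against 1.05, 2.15, 2.67 and 2.55 in fed libraries 1, 3, 4 and 5. Every fasted library thus held more Ccl1 counts per Csf2 count than any fed library. Of 7699 other tested genes, 20.0% likewise had a ratio to Csf2 that was higher in every fasted library, so many genes shared this separation from Csf2.

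Ccl1 over Lif was 2.31, 1.30, 1.29 and 1.80 in fasted libraries 1, 3, 4 and 5, against 0.521, 0.813, 1.12 and 0.701 in fed libraries 1, 3, 4 and 5. Here 6.26% of the other tested genes were higher in every fasted library by the same reading, although neither Lif nor Ccl1 separated the groups alone. Tnf over Csf2 ran from 0.366 to 0.665 in fasted libraries and from 0.345 to 0.616 in fed libraries, so this ratio overlapped almost completely. Over the 8 libraries, the log2 levels of Csf2 had a Pearson correlation of 0.80 with Tnf, 0.47 with Lif, 0.35 with Areg, 0.24 with Vegfa, -0.004 with Ccl5 and -0.37 with Ccl1, a description over libraries that share the 2 treatments and the acinar share.

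**Figure D3:**
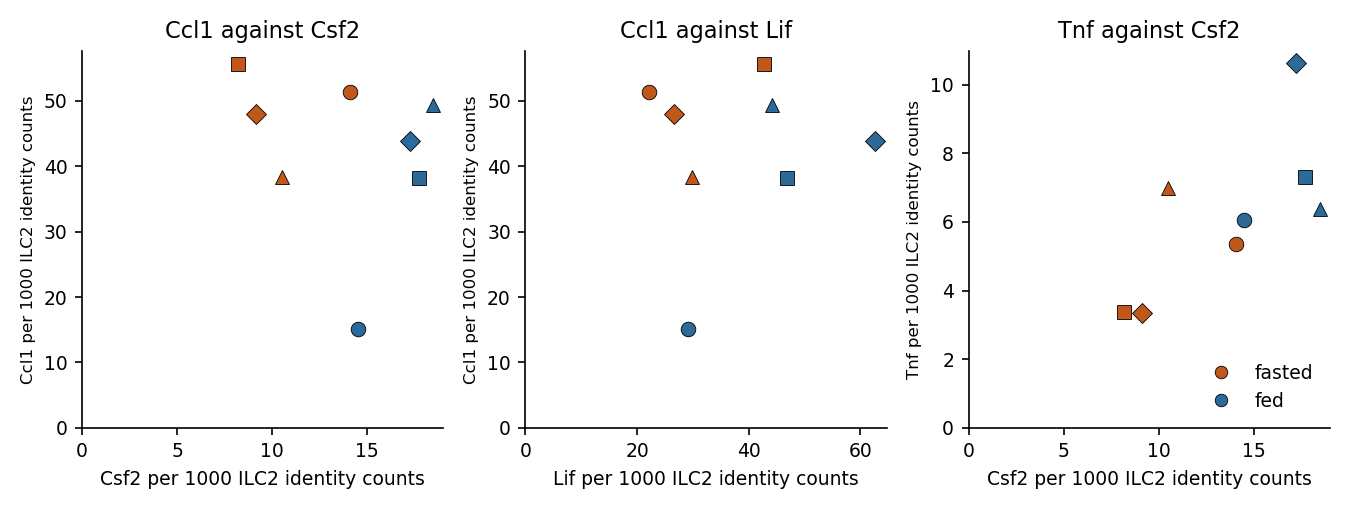
Counts per 1000 ILC2 identity counts in each library (linear axes from 0): Ccl1 against Csf2, Ccl1 against Lif and Tnf against Csf2, with fasted libraries in orange, fed libraries in blue and library numbers as circle (1), square (3), triangle (4) and diamond (5). All fasted libraries lie to the left of all fed libraries for Csf2, and fed library 1 is low for Ccl1.

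The 5 genes with a nonamer were the 5 with a negative log2 fold change, and the 2 tested genes without a nonamer were those with a positive value. This division was noted after the values were known and has no test. It also rested on the signs of Areg and Ccl5, at -0.15 ± 0.38 and 0.11 ± 0.33 (SE). Both signs turned when certain single libraries were left out. Over the 7212 tested genes with an annotated 3′ untranslated region, 548 (7.598%) held at least 1 nonamer and had a median log2 fold change of 0.007, against -0.003 for the 6664 without. The 19 genes with at least 4 nonamers, Csf2 and Tnf among them, had a median of 0.03. Nonamer genes at large were thus centred near 0 in these libraries, and the difference of the 5 listed genes from them was not tested. Median length of the region was 2301 bases in genes with a nonamer and 1038 bases in genes without, while the Csf2 region is 317 bases long and that of Areg 253 bases.

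**Figure D4:**
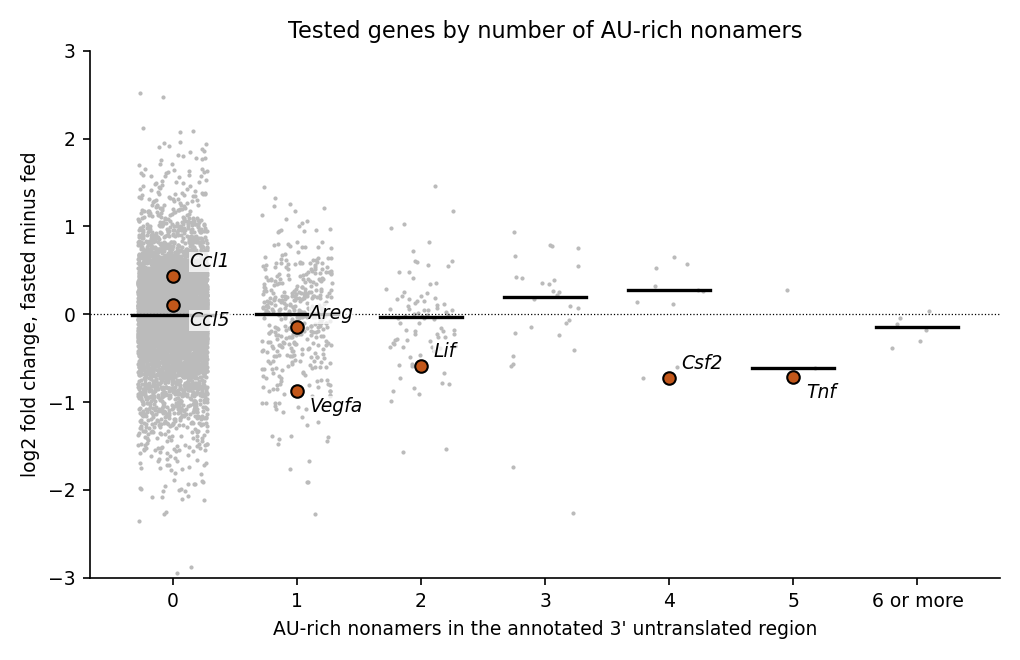
Log2 fold change, fasted minus fed, against the number of TTATTTATT nonamers in the longest annotated 3′ untranslated region, for 7212 tested genes (grey points, jittered sideways; 4 genes lie outside the axis) with the median of each class as a black line and the listed genes in orange. Csf2 and Tnf, with 4 and 5 nonamers, lie below 0, and the medians of the well-filled classes of 0, 1 and 2 nonamers lie near 0.

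RefSeq promoter windows (GRCm38.p6, 250 bases before to 50 after a start) were found for 8 of the 10 genes, Ccl4 and Ccl5 excepted. They were searched on both strands for the cyclic AMP element TGACGTCA, the AP-1 site TGANTCA, the NFAT core GGAAA and the NF-kB consensus. The cyclic AMP element was found in Areg alone, at position -61, and is held by 1.79% of 32851 promoters. The AP-1 site was found in Lif alone, at position -228, and is held by 7.81% of promoters. The NF-kB consensus was found in Vegfa alone, at position -118, and is held by 4.51% of promoters. These 3 matches are printed on the strand of the gene with the motif in capitals, since each was found in a single gene of the list. Areg is at chr5:91139512-91139571 and Lif at chr11:4257318-4257377, both on the plus strand, and Vegfa at chr17:46032462-46032521 on the minus strand.
Areg: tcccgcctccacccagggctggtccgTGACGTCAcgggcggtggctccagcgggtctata
Lif: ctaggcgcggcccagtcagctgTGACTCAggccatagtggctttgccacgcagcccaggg
Vegfa: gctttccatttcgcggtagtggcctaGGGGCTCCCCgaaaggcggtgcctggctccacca
The NFAT core was found in all 8, but 61.3% of all promoters hold it. The Csf2 window starts from a RefSeq start that lies upstream of the GENCODE one, so it does not cover the bases just before the GENCODE start.

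Genes around these signals were read from 6 lists, none with a gene past the threshold. The genes named have the smallest p of their list in each direction, so separate groups among them partly follow from this choice. The share of all tested genes that were separate with a higher fasted level is not given here. Of 16 receptor genes, 6 were tested, 4 with a positive and 2 with a negative log2 fold change (median 0.39). Ccr8, the receptor of Ccl1, stood at 21.6 ± 5.41 CPM in fasted libraries and 12.7 ± 2.93 CPM in fed libraries (SD, n = 4 each), a log2 fold change of 0.77 ± 0.31 (SE; edgeR, unadjusted p = 0.0308, Benjamini-Hochberg adjusted p = 1.00). Tnfrsf1b, a receptor of Tnf, had 0.68 ± 0.34, and the GM-CSF receptor chain Csf2ra and Lifr had -0.44 ± 0.41 and -0.41 ± 0.99. The Lifr level was low, at 2.99 ± 3.53 CPM in fasted libraries and 3.80 ± 3.66 CPM in fed libraries (SD, n = 4 each). Without fasted libraries 1 and 3 Ccr8 was at 0.54 ± 0.42, and Lifr turned to 0.52 ± 0.84. The ligand Ccl1 and its receptor Ccr8 thus both had a higher fasted mean, and neither was called. In the main fit Tnf and Tnfrsf1b differed in sign, and Csf2 with Csf2ra and Lif with Lifr were negative.

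Shedding frees amphiregulin and Tnf from the membrane, and 6 of 9 genes of this machinery were tested, 4 positive and 2 negative (median 0.15). Adam17, the main sheddase of both, failed the filter. Frmd8, which stabilises the complex of Adam17 with its iRhom carriers, stood at 46.0 ± 19.4 CPM in fasted libraries and 21.7 ± 4.98 CPM in fed libraries without overlap (SD, n = 4 each), a log2 fold change of 1.09 ± 0.33 (SE; edgeR, unadjusted p = 0.0073, Benjamini-Hochberg adjusted p = 0.79). Furin, the protease that matures Adam17, had 0.45 ± 0.20, Sppl2a, which cuts the membrane stub of Tnf, -0.45 ± 0.40, and the sheddase Adam10 -0.12 ± 0.60. Without fasted libraries 1 and 3 Frmd8 was at 0.57 ± 0.37 and Furin at 0.27 ± 0.28, and Adam10 turned to 0.47 ± 0.64.

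Of 22 NF-kB, NFAT and AP-1 genes with a row, 20 were tested, 16 positive and 4 negative (median 0.18). Without fasted libraries 1 and 3 the same 20 genes were 9 positive and 11 negative (median -0.04). The lean to positive values was thus not kept without these libraries. Tnfaip3, the NF-kB feedback inhibitor A20, stood at 205 ± 27.0 CPM in fasted libraries and 120 ± 30.4 CPM in fed libraries without overlap (SD, n = 4 each), a log2 fold change of 0.77 ± 0.23 (SE; edgeR, unadjusted p = 0.00679, Benjamini-Hochberg adjusted p = 0.79). The AP-1 member Fosl2 had 0.82 ± 0.27, also without overlap, and Fos and the NF-kB cofactor Bcl3 had -0.39 ± 0.28 and -0.52 ± 0.39. In the same setting Tnfaip3 was at 0.75 ± 0.32 and Fosl2 at 0.48 ± 0.33.

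All 13 mRNA decay regulators were tested, 7 negative and 6 positive (median -0.09). Zfp36l2, which binds AU-rich elements and hastens decay, stood at 215 ± 48.6 CPM in fasted libraries and 103 ± 30.1 CPM in fed libraries without overlap (SD, n = 4 each). Its log2 fold change was 1.06 ± 0.26 (SE; edgeR, unadjusted p = 0.00183, Benjamini-Hochberg adjusted p = 0.54), the smallest p on these lists, and it was not called. Zc3h12a, the endonuclease Regnase-1, had 0.90 ± 0.40, and Rc3h2 (Roquin-2) and the deadenylase scaffold Cnot1 had -0.87 ± 0.58 and -0.41 ± 0.28. The Rc3h2 level was low, with means of 1.30 CPM in fasted libraries and 2.46 CPM in fed libraries. On leaving out fasted libraries 1 and 3, Zfp36l2 was at 0.80 ± 0.33 and Zc3h12a at 0.08 ± 0.36.

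Of 12 tested hypoxia response genes, a setting in which Vegfa is a known target, 7 were positive and 5 negative (median 0.05). Adm, which encodes adrenomedullin, stood at 8.48 ± 5.18 CPM in fasted libraries and 1.99 ± 0.71 CPM in fed libraries (SD, n = 4 each), a log2 fold change of 2.09 ± 0.63 (SE; edgeR, unadjusted p = 0.00657, Benjamini-Hochberg adjusted p = 0.79), opposite in sign to Vegfa. The glucose transporter Slc2a1 had 0.48 ± 0.34, and Epas1 and Ndrg1 had -0.84 ± 0.92 and -0.69 ± 0.77. With those libraries left out Adm was at 1.6 ± 0.81, Slc2a1 at 0.14 ± 0.41 and Ndrg1 at -0.16 ± 0.66.

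Of 35 other chemokine and growth factor genes with a row, 12 were tested, 7 negative and 5 positive (median -0.31). The cytokine Osm, a relative of Lif, had a log2 fold change of -0.48 ± 0.35, and Egf, a ligand of the amphiregulin receptor, -1.25 ± 0.94. The Egf level was low, with means of 1.40 CPM in fasted libraries and 3.325 CPM in fed libraries. Cxcl1, a neutrophil chemokine, had 1.46 ± 0.82 and Hbegf, which shares the amphiregulin receptor, 0.81 ± 0.58. None of these 4 was called. Without fasted libraries 1 and 3 Egf was at -0.32 ± 0.78 and Cxcl1 at 0.83 ± 0.97.

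The tested genes whose log2 levels over the 8 libraries were most like those of Csf2 were Zbtb14, a zinc finger protein (Pearson r = 0.93), Rn45s, the ribosomal RNA precursor (0.92), and Cenpt, a centromere protein (0.92). Those most like Areg were Hnrnpf, Gpcpd1 and Rbbp7 (0.96 each), and Csf2 and Areg themselves had r = 0.35. These are descriptions over libraries that share treatments, depth and acinar RNA. Both lists of most similar genes held no other signal of the list.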

How the data were processed

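Messenger RNA of islet ILC2 was extracted with Trizol and made into barcoded CEL-seq2 libraries, a 3′ end method, per the labels' protocols. The submitters' processing notes name STAR, edgeR and mm10 as the build; their versions are not given. The authors deposited raw counts, whole numbers for each gene, and the sources used here do not state whether they are reads or molecular identifiers. If they are reads, copies of a molecule are counted again, and the counting errors, intervals and limits given here are too small. The 4 sequencing files hold libraries of both treatments, so treatment was read from column names, with control taken as fed. Of 10 columns, 8 were used (numbers 1, 3, 4 and 5 of each treatment) and 2 were not. The 11 spike-in rows (20 counts) were left out.

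The fit used edgeR 4.0.16 under R 4.3.3 on these counts (filterByExpr, TMM, robust quasi-likelihood test, two-sided, Benjamini-Hochberg over 7700 genes, threshold 0.05). The common biological coefficient of variation was 0.506. The fit was tested on simulated data. With each count taken as a separate molecule, libraries of a group differed beyond counting noise, with a chi-square of at least 13.6 per gene. None were therefore averaged as copies of another, and whether they are independent is not known from this. Libraries of the same number had correlated deviations (0.23, 0.14, 0.50 and 0.13, all above 0.1). From column names and these values only, they were treated as pairs in the replicate block and in comparisons by number. Among unlike numbers fasted library 5 with fed library 4 (0.21) and fasted library 3 with fed library 1 (0.20) correlated more than some same-number pairs. The main fit had no block, so its SE and p-values are those of an unpaired test. Values of the surrounding lists without fasted libraries 1 and 3 were added after seeing the data. Alternatives included DESeq2 1.42.0 and limma-voom (limma 3.58.1). The genes, lists and rule for named genes (all list genes, the 2 smallest p in each direction per surrounding list, the 3 most similar genes) were chosen with earlier results of these data known. A further receptor gene is not reported here. Counting intervals cover counting error only.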

Additional observations from a re-analysis of the deposited data

How the results depend on the processing

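Of the 147 single-gene values under 21 alternatives, 139 kept their direction and stayed short of the threshold and 8 reversed. With library totals alone Areg was at 0.56 and Lif at 0.031, while the median of all genes moved to 0.51; with DESeq2 it was -0.10. Without fasted library 5 or fed library 3 Areg was at 0.04 and 0.17 (lowest and highest with a library left out -0.41 and 0.17). Ccl5 was at -0.17 with the acinar covariate, -0.21 without fasted libraries 1 and 3, -0.071 without fasted library 1 and -0.06 without fed library 3 (range with a library left out -0.071 to 0.333). Of the surrounding genes Lifr turned to 0.52 and Adam10 to 0.47 without fasted libraries 1 and 3. Csf2 was negative in all 21, from -0.89 to -0.16, and its smallest adjusted p was 0.43, with limma-voom. Over all genes the 0 calls became 1 with library totals alone, 1 without a filter on low counts and 11 with DESeq2 (7 higher, 4 lower in fasted libraries), none from the list; limma-voom called 0. At an unadjusted p under 0.05 stood 338 genes by edgeR, 462 by DESeq2, 714 by limma-voom and 535 with the replicate block. The number of listed genes without overlap, 1, was 0 with upper quartile factors and library totals alone, 2 without fasted libraries 1 and 3, and 1 to 2 with a library left out. With the replicate block, which pairs libraries of the same number, Csf2 was at -0.74 (edgeR, adjusted p = 0.70) and no call changed. The cause of these changes was not tested. Depth limits Ccl4, Vegfa and Tnf most.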
